A study of Mus musculus with 7 samples.

Results

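Alpha-defensins and other genes grouped with Paneth cell granules were examined in RNA from the mouse duodenum. The members were all rows of the gene table whose name begins with Defa, together with Lyz1, Mmp7, Ang4, Itln1, Mptx2, Habp2, Nupr1, AY761184, Gm14851, Gm7861 and Gm7849, provided that the mean over all libraries was above 0. These rules gave 36 of 22987 rows: 25 Defa rows, 4 further rows of the defensin family (AY761184 and the Gm rows) and 7 other genes. The 7 are here called granule genes for short, although Nupr1 among them codes for a regulator of transcription. Levels are RPKM, read numbers divided by gene length and by mapped depth, so rows can be compared per length. The study set mice carrying the T337S change on both alleles of Nlrc4 (4 libraries) against wild-type mice (3 libraries), all C57BL/6 and 6 weeks old. RNA came from the rinsed duodenum, whose luminal surface was scraped off with a slide, so it held every cell type of the scraping. T337S is known as a gain-of-function change of this inflammasome sensor, and the labels name no promoter or cell type to which it was limited. The change leaves the transcript in place, so the Nlrc4 level, 19.2 ± 0.956 RPKM in Nlrc4-T337S and 19.7 ± 0.940 RPKM in wild type, does not check the labels. Whether each library came from its own animal is not stated outright, so the p-values reflect the spread among libraries.

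Paneth cells sit at the base of small intestinal crypts, beside the stem cells, and release granules of antimicrobial proteins into the crypt lumen. Mouse alpha-defensins, also called cryptdins, are made as precursors that the protease Mmp7 (matrilysin) cleaves into active peptides. Paneth cell maturation depends on Wnt signalling, whose TCF/LEF factors bind a short core motif in the promoters of several defensin genes. The defensin genes lie as near-identical copies in one cluster, and reads of one copy can be assigned to another.

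The cluster and the promoters show how alike the copies are. In the mm9 build, 17 defensin rows matched an annotated gene, all on chromosome 8 between 22165224 and 22845943, a span of 681 kb, with 12 on the plus and 5 on the minus strand. RefSeq promoter sequences of the GRCm38.p6 build, 250 bases before to 50 bases after the start, matched 22 of the 36 members by symbol or older symbol. The TCF/LEF core CTTTGAT, searched on both strands (reading as ATCAAAG on the opposite strand), was in 12 of 12 Defa promoters, 8 of which held 2 copies 40 bases apart. It was in 0 of 3 Gm promoters and in 1 of 7 granule gene promoters, that of Mmp7, against 3.73% of all 32851 promoters. The related core CTTTGAA, searched likewise on both strands, was in none of the 22 matched promoters, against 5.14% of all. A TATA motif, spelled TATAAA and searched on both strands, was in 11 of 12 Defa, 3 of 3 Gm and 1 of 7 granule gene promoters, against 13.6% of all. The motifs share no overlapping letters in the sequences shown. A match describes the letters and not a bound site, and no binding was measured. The promoters of 6 members are printed because they show the contrast: Defa23 with 2 cores, Defa30 with 1, Gm7849 (Defa42 in RefSeq) with a TATA motif alone, and the granule genes Mmp7, Lyz1 and Nupr1. Capitals mark the CTTTGAT core and the TATA motif on either strand.
Defa23: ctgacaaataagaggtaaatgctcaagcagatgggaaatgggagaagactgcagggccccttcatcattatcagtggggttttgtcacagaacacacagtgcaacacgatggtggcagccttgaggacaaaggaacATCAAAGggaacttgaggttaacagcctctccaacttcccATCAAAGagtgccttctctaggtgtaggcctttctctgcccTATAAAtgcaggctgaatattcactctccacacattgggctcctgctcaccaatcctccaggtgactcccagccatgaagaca
Defa30: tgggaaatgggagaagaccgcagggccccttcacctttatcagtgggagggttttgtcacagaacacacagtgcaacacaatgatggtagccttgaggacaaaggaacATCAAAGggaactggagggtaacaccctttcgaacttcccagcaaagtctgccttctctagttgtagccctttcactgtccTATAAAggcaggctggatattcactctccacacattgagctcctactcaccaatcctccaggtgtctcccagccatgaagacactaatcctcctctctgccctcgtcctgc
Gm7849: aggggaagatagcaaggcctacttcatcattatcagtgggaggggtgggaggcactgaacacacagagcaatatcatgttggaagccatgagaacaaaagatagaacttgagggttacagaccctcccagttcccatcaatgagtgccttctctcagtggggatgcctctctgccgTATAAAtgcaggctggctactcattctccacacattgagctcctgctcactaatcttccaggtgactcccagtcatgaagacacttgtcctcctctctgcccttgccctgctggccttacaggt
Mmp7: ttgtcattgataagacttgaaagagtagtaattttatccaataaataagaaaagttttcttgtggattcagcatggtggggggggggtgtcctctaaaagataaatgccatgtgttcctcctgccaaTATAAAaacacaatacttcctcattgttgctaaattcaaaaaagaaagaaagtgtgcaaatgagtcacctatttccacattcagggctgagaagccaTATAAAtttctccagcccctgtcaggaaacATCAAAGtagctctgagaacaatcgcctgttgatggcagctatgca
Lyz1: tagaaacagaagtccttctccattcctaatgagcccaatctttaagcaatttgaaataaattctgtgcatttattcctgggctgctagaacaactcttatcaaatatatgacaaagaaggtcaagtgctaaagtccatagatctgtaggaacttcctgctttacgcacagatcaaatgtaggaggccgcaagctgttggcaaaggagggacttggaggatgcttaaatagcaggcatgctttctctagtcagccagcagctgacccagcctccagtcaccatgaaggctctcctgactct
Nupr1: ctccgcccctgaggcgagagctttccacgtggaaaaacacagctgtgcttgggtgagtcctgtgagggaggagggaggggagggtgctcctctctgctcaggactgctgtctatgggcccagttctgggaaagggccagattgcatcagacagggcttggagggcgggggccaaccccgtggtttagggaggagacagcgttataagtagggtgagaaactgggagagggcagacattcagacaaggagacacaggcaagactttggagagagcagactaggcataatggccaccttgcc
These windows, each written 5′ to 3′ along the gene's strand, lie in GRCm38.p6 as follows. The defensin windows are Defa23 at chr8:21054790-21055089 on the plus strand, Defa30 at chr8:21134400-21134699 on the plus strand and Gm7849 at chr8:21456468-21456767 on the minus strand. The granule gene windows are Mmp7 at chr9:7691840-7692139 on the plus strand, Lyz1 at chr10:117292819-117293118 on the minus strand and Nupr1 at chr7:126625421-126625720 on the minus strand.

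Counted from the start, with bases before it negative, the Defa23 cores began at -114 and -74 and its TATA motif at -33. In Defa30 the core began at -142 and the TATA motif at -61. In the printed Mmp7 window the core began after the start, at 5, and the TATA motifs at -123 and -26. Across the 14 defensin promoters that could be aligned over 106 bases, identity between pairs ran from 62.3% to 100%, with a median of 85.85% over 91 pairs. Transcripts were also shared in part, as compared among protein-coding transcripts only. Each of the 16 defensin rows with such an mm9 transcript shared 50-base stretches with another gene. The share ran from 28.1% of the stretches (Defa24) to 100% (Defa31 and Gm7849), with a median of 80.8%. Levels of single defensin rows therefore rest on how reads were split, and the sum over rows is given first.

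Defensin RNA was low in the mutant: each of the 4 Nlrc4-T337S libraries lay below all 3 wild-type ones. The 25 Defa rows summed to 2217, 1434 and 2101 RPKM in wild-type replicates 1 to 3, and to 109, 862, 141 and 326 RPKM in Nlrc4-T337S replicates 1 to 4. The groups did not overlap: the lowest wild-type sum was 1.66 times the sum of Nlrc4-T337S replicate 2, which stood nearer to wild type than the other mutant libraries did. The means were 1917 ± 423 RPKM (SD, n = 3) and 359 ± 348 RPKM (SD, n = 4), a 5.33-fold difference in which the mutant mean was 18.7% of the wild-type mean. The mutant libraries spanned 7.92-fold among themselves and the wild-type libraries 1.55-fold. On the log2 scale the mutant mean differed by -2.42, by -3.32 without Nlrc4-T337S replicate 2, by -1.91 within the first 4 libraries of the sample order and by -3.17 within the last 3. In bulk RNA, fewer Paneth cells and less RNA per Paneth cell cannot be told apart. No p-value is given for a sum over members.

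The defensin-related rows AY761184, Gm14851, Gm7849 and Gm7861 followed the same order. They summed to 644, 410 and 621 RPKM in wild type and to 16.0, 237, 27.8 and 84.5 RPKM in Nlrc4-T337S, again with no overlap. Their means were 558 ± 129 and 91.2 ± 101 RPKM, a 6.12-fold difference. All 36 members together made up 0.769%, 0.562% and 0.751% of all RPKM in wild type, and 0.0521%, 0.312%, 0.0636% and 0.133% in Nlrc4-T337S.

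**Figure D1:**
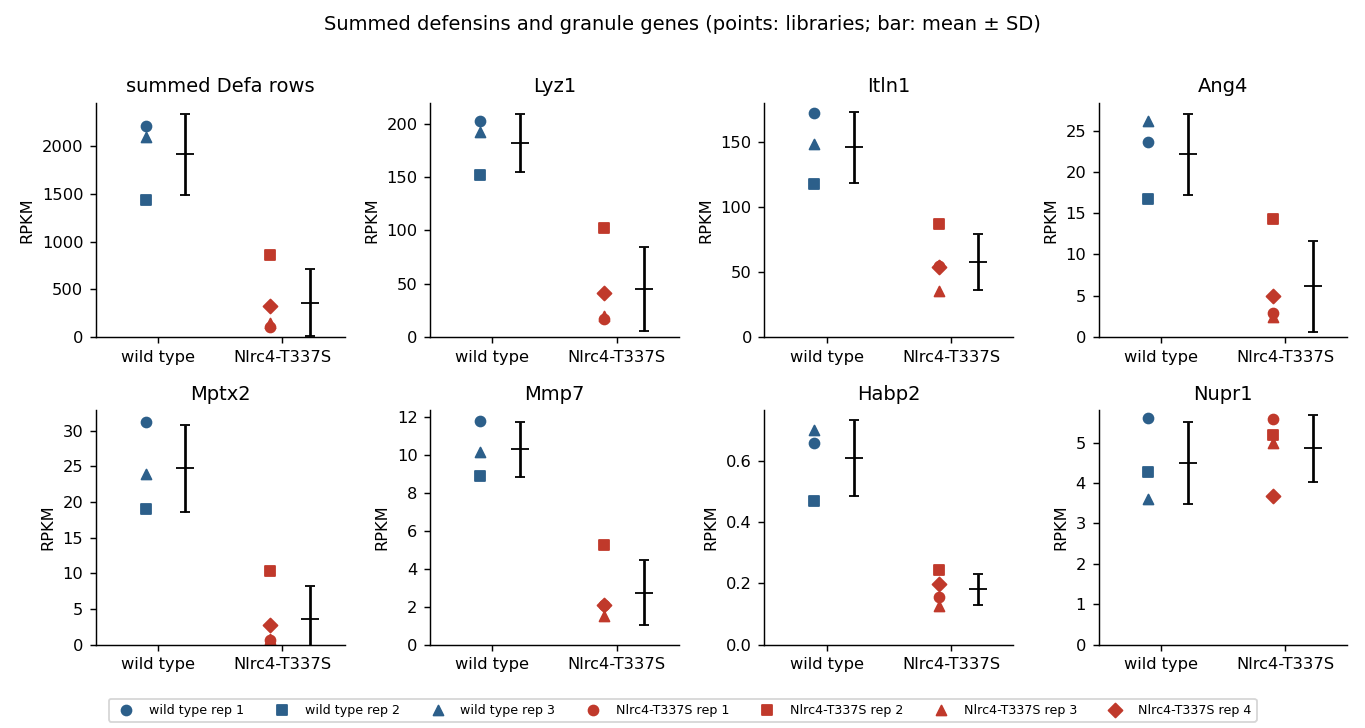
RPKM by genotype for the summed defensin rows and for the granule genes, one panel each with the y axis starting at 0; points are libraries and bars the mean ± SD (n = 3 wild type, n = 4 Nlrc4-T337S). Wild-type Defa sums lie at 1434 to 2217 RPKM and mutant sums at 109 to 862 RPKM, whereas Nupr1 overlaps.

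Single rows were tested with limma on log2(RPKM + 0.5) over the 10987 genes that averaged 0.5 RPKM or more, adjusting p-values over all of them at 0.05. Of the 30 members that could be tested, 4 passed as lower in Nlrc4-T337S (Defa3, Defa34, Defa-ps1 and Mmp7), against a background of 0.592% of all tested genes. Of the 30, 4 had a mutant mean under the minimum and entered through the wild-type libraries: Defa-ps1 (0.116 against 1.15 RPKM), Defa6 (0.476 against 2.13 RPKM) and Defa32 and Defa33 (both 0.485 against 2.14 RPKM). Their direction was fixed by that entry, so the counts and medians over the 30 are descriptions and lend no support. No member passed as higher, against a background of 0.3%, and none was higher at an unadjusted p below 0.05 (1.86% of all genes). At an unadjusted p below 0.05, 29 of 30 were lower, against 20.4% of all genes. In 24 of 30, every mutant library was below every wild-type library, against 17.3%, and 29 of 30 had a log2 change of -1 or lower, against 1.43%. The median log2 change was -2.85 over the 30 members and -0.15 over all tested genes. Without the filter on low values it was -2.63 over all 36 members and -0.06 over 20996 genes, and 35 of 36 members had a negative change. The count of 4 depended on single libraries: leaving out Nlrc4-T337S replicate 2 gave 29 of 30 members (11.7% of all genes). Leaving out Nlrc4-T337S replicate 1, 3 or 4 gave 1, 2 and 1 members (0.126%, 0.163% and 0.127% of all genes). Leaving out wild-type replicate 1, 2 or 3 gave 1 member of 29 each (0.0274%, 0.0367% and 0.593%). In those 6 fits Defa3 and Mmp7 did not pass. At an adjusted p below 0.10, 20 of 30 members were lower, against 2.28% of all genes. With libraries weighted by their spread 24 passed (2.61%), with median-of-ratios or equal-sum scaling 5 (0.592%) and with quantile normalization 6 (0.537%). With a pseudocount of 0.1 RPKM 3 passed (0.455%), with robust variance moderation 3 (0.674%) and with a term for sample order 3 (0.956%), Defa3 being the one lost in each. With a pseudocount of 1 RPKM 4 passed (0.628%). Without the filter 1 of 36 passed (0.105%), and with a minimum mean of 2 RPKM 1 of 25 (0.348%). Nlrc4-T337S replicate 2 had the fewest reads, 45032119 against 72343694 to 95732587 in the other libraries; the part of depth in these counts was not tested.

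**Figure D2:**
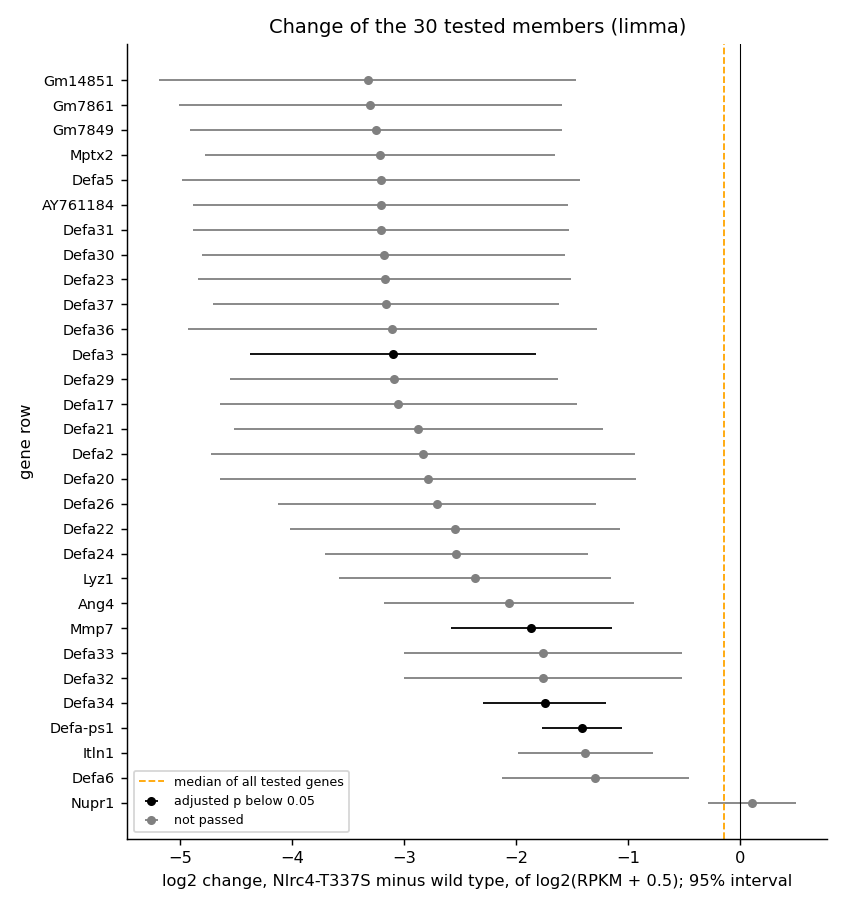
Log2 change with its 95% interval (x axis, Nlrc4-T337S minus wild type, on log2(RPKM + 0.5)) for each of the 30 tested members (y axis), with the median of all tested genes as a dashed line at -0.15. Of the 30, 29 lie left of that line at -1 or lower, and Nupr1 lies at 0.11.

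Among the defensins of highest level, Defa24 (chr8:22844966-22845943, plus strand) carried 841, 560 and 837 RPKM in wild type and 70.8, 362, 70.8 and 139 RPKM in Nlrc4-T337S. Its log2 change was -2.53 (SE 0.52, limma adjusted p = 0.0666), and its 28.1% of shared stretches was the lowest among the defensin rows with a transcript. Defa17 had 405, 273 and 375 RPKM in wild type and 13.2, 156, 23.4 and 58.7 RPKM in the mutant (adjusted p = 0.0876 by limma). Both rows kept the genotypes apart in every library, with replicate 2 as the highest mutant library. Defa30 had 315, 212 and 344 RPKM against 8.49, 109, 19.6 and 48.2 RPKM (limma adjusted p = 0.0851). AY761184, a cryptdin-related sequence, had 281, 177 and 259 RPKM against 8.24, 104, 12.0 and 36.2 RPKM (limma adjusted p = 0.0876). Gm14851, listed in RefSeq as Defa38, had 211, 135 and 224 RPKM against 4.21, 79.3, 9.50 and 30.8 RPKM (limma adjusted p = 0.102). None of these rows overlapped between genotypes, though none passed the threshold. Defa23 had 96.9, 64.9 and 96.9 RPKM in wild type against 2.18, 33.6, 5.13 and 14.9 RPKM (limma adjusted p = 0.0883). Gm7849 had 108, 55.9 and 92.3 RPKM against 2.20, 29.5, 4.16 and 14.5 RPKM (limma adjusted p = 0.0851). Defa36 had 90.1, 56.8 and 86.2 RPKM against 1.74, 40.6, 5.21 and 11.3 RPKM (limma adjusted p = 0.108). The order of the libraries repeated from row to row: Nlrc4-T337S replicate 2 was the highest mutant library in 33 of 36 members, and replicate 1 or 3 the lowest in 33 of 36.

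**Figure D3:**
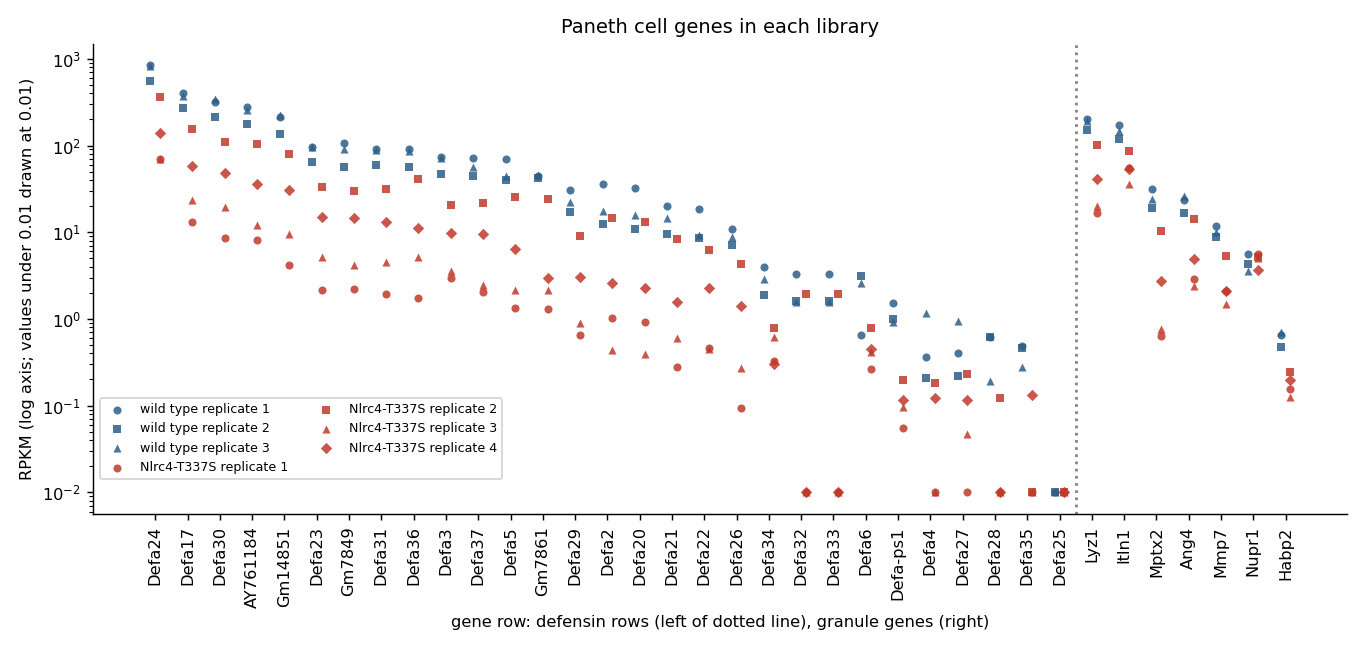
RPKM on a log axis (y) for each member (x, defensin rows left of the dotted line and granule genes right) with one point per library, coloured by genotype; values under 0.01 RPKM are drawn at 0.01. Wild-type points lie above mutant points in most rows, replicate 2 is the uppermost mutant point in 33 of 36 members, and Nupr1 shows no separation.

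The 3 defensin rows that passed the threshold were not among those of highest level. Defa3 (chr8:22427088-22428056) had 72.9, 46.9 and 72.7 RPKM in wild type and 2.98, 20.4, 3.54 and 9.74 RPKM in Nlrc4-T337S. The means were 64.1 ± 15.0 and 9.17 ± 8.10 RPKM, a log2 change of -3.10 (SE 0.56, limma adjusted p = 0.0493; 0.0551 to 0.102 with the lower pseudocount, robust moderation or the sample-order term). Defa3 shares 92.2% of its stretches with other genes, so its level is uncertain where reads were split among copies. Defa34 and Defa-ps1 had no matched protein-coding transcript, so their sharing was not measured. Defa34 had 3.97, 1.87 and 2.90 RPKM in wild type and 0.327, 0.776, 0.621 and 0.301 RPKM in the mutant (log2 change -1.74, SE 0.24, limma adjusted p = 0.0199). Defa-ps1 (chr8:22805484-22806325), annotated as a processed transcript, had 1.54, 0.993 and 0.930 RPKM against 0.0554, 0.196, 0.0961 and 0.116 RPKM (log2 change -1.41, SE 0.16, limma adjusted p = 0.00774). In these 3 rows the wild-type libraries were all above the mutant ones, and in Defa34 and Defa-ps1 the mutant libraries lay closer together than in the abundant rows. Each Defa-ps1 mutant value was under the pseudocount of 0.5 RPKM, which narrows the spread on the log2 scale. With a pseudocount of 0.1 RPKM its log2 change was -2.55 (SE 0.29, limma adjusted p = 0.0106). Defa-ps1 was just inside the filter, with a mean of 0.561 RPKM, and Habp2 just outside it at 0.365 RPKM; without any 1 wild-type library Defa-ps1 dropped below the filter. Over all 24 tested defensin rows the log2 change ran from -3.33 (Gm14851) to -1.29 (Defa6), and it was negative in both the first 4 and the last 3 libraries in each of the 24.

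Of the remaining defensin rows, Defa5, Defa29, Defa31 and Defa37 had wild-type means of 23.2 to 79.8 RPKM and mutant means of 3.38 to 12.7 RPKM with no overlap. Defa21, Defa22, Defa26 and Gm7861 had wild-type means of 8.97 to 43.8 RPKM and mutant means of 1.51 to 7.61 RPKM, also with no overlap. Defa2, Defa20, Defa32, Defa33 and Defa6 overlapped between genotypes. Defa32 and Defa33 held the same value in each of the 7 libraries, and the ratio of Defa2 to Defa20 stayed at 1.125 with a spread of 0.0412%, so each pair counts as one measurement. AY761184, Defa29 and the 3 Gm rows also overlap the small nucleolar RNA SNORA5 in mm9. Defa25, Defa27, Defa28, Defa35 and Defa4 were too low to test; Defa25 had a mean of 2.66e-11 RPKM, far below the worth of 1 read per kilobase, 0.0124 to 0.0251 RPKM.

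The make-up of the defensin pool differed between libraries with little defensin RNA and those with much. Defa24 held 29.4%, 30.4% and 30.8% of the 29-row sum in wild type and 56.7%, 33.0%, 41.9% and 33.9% in Nlrc4-T337S. The wild-type shares averaged 30.2 ± 0.692% and every mutant share was above them, most of all in the 2 libraries of lowest sum, replicates 1 and 3. The 4 rows Defa24, Defa17, Defa30 and AY761184 together held 64.4% to 66.7% in wild type and 66.6% to 80.7% in the mutant. These shares carry no test, and the split of reads among copies enters each of them.

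**Figure D4:**
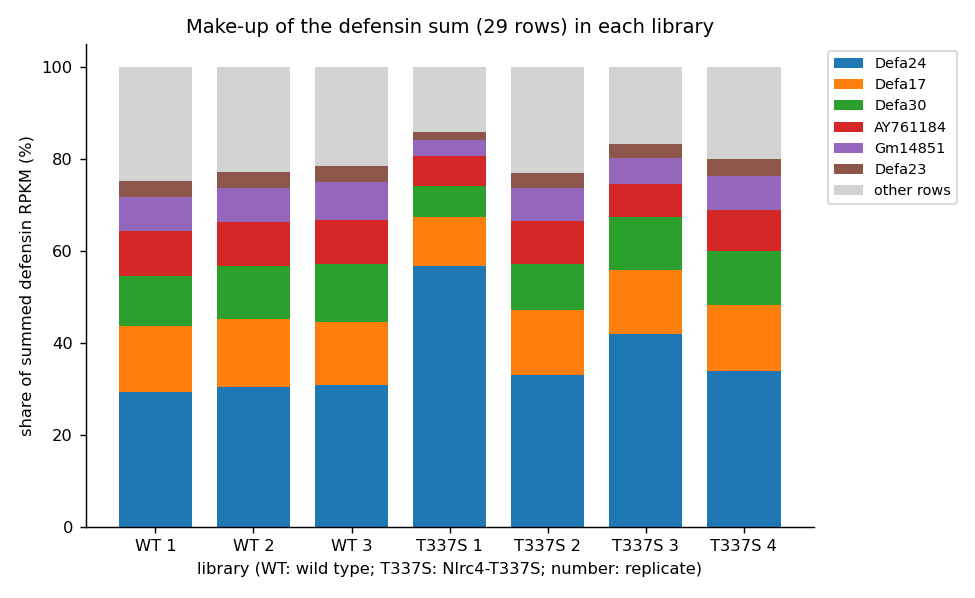
Share of the summed RPKM of the 29 defensin rows (y axis, percent) held by the leading rows in each library (x axis), as stacked bars from 0. Defa24 takes 29.4% to 30.8% in wild-type libraries and 33.0% to 56.7% in Nlrc4-T337S libraries.

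Among the granule genes, only Mmp7, the protease that processes defensin precursors, passed the threshold. Mmp7 (chr9:7692086-7699585, plus strand) had 11.8, 8.92 and 10.2 RPKM in wild type and 2.07, 5.26, 1.48 and 2.08 RPKM in Nlrc4-T337S. All mutant libraries were below the wild-type ones, with means of 10.3 ± 1.45 and 2.72 ± 1.71 RPKM (log2 change -1.86, SE 0.32, limma adjusted p = 0.0392). Its transcript shares no 50-base stretch with the protein-coding transcripts of another gene. An opposite-strand transcript, AV064505, overlaps it, and the library kit does not mark strand. Lyz1, the Paneth cell lysozyme that cleaves bacterial cell walls, had 203, 151 and 192 RPKM against 16.7, 102, 19.98 and 41.3 RPKM (log2 change -2.37, SE 0.54, limma adjusted p = 0.0863). Its groups did not overlap, and 16.1% of its stretches were shared with the macrophage lysozyme Lyz2, which had 39.4, 50.7 and 26.2 RPKM in wild type and 14.0, 42.4, 11.0 and 20.1 RPKM in the mutant. Itln1, a lectin that binds bacterial sugars, had 172, 117 and 148 RPKM against 54.4, 86.8, 35.6 and 54.0 RPKM (log2 change -1.38, SE 0.27, limma adjusted p = 0.0568). Ang4, an antimicrobial ribonuclease, had 23.6, 16.7 and 26.2 RPKM against 2.92, 14.3, 2.41 and 4.90 RPKM (log2 change -2.07, SE 0.49, limma adjusted p = 0.0964). Mptx2, a mucosal pentraxin, had 31.2, 19.1 and 23.9 RPKM against 0.631, 10.3, 0.774 and 2.71 RPKM (log2 change -3.22, SE 0.69, limma adjusted p = 0.0745). These genes kept the genotypes apart in every library, without passing the threshold. Habp2, a serine protease that binds hyaluronan, was too low to test, at 0.659, 0.468 and 0.703 RPKM in wild type and 0.156, 0.244, 0.126 and 0.197 RPKM in the mutant, and it overlaps Nrap on the opposite strand.

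Nupr1, a small stress-response regulator of transcription, did not share this pattern. It had 5.62, 4.27 and 3.61 RPKM in wild type and 5.58, 5.18, 5.003 and 3.67 RPKM in Nlrc4-T337S, and the groups overlapped. Its log2 change was 0.11 with a 95% interval of -0.28 to 0.50 (limma adjusted p = 0.733). The ratios of the granule genes to the defensin sum differed between genes. Per 100 RPKM of summed Defa rows, Itln1 stood at 7.74, 8.19 and 7.04 in wild type and at 49.97, 10.1, 25.2 and 16.6 in the mutant. Lyz1 stood at 9.14, 10.6 and 9.16 in wild type and at 15.4, 11.8, 14.2 and 12.7 in the mutant, and Mptx2 at 1.41, 1.33 and 1.14 and at 0.580, 1.20, 0.549 and 0.831. The Itln1 and Lyz1 ratios were above the wild-type range in each mutant library, whereas the Mptx2 ratio was below it in replicates 1, 3 and 4.

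Transcription factors and other secretory genes of Paneth cells formed a separate list. Of 13 tested genes in that list, 1 passed as lower and 0 as higher by limma (7 lower and 0 higher at an unadjusted p below 0.05, where 20.4% of all genes were lower), with 12 negative changes and a median log2 change of -0.24 beside -0.15 over all genes. The gene that passed was Pla2g2a, a secreted phospholipase, at 0.212 ± 0.264 RPKM against 1.47 ± 0.255 RPKM in wild type (log2 change -1.52, limma adjusted p = 0.0312). Its mutant mean was under the 0.5 RPKM minimum, so it entered through the wild-type libraries, which fixed its direction. Xbp1, a regulator of secretory capacity, stood at 60.8 ± 1.85 RPKM in the mutant and 72.3 ± 8.57 RPKM in wild type (limma adjusted p = 0.217). Reg4, a secreted lectin, stood at 56.7 ± 8.07 and 61.8 ± 3.72 RPKM (limma adjusted p = 0.548). Sox9 also stands in the stem cell list and Spdef in the goblet cell list. The list summed to 174 to 206 RPKM in the mutant and 224 to 231 RPKM in wild type, with no overlap. Xbp1, Reg4, Cd24a and Pnliprp2 made up most of that sum, so it says little about the other genes. Taken singly, Xbp1, Reg4 and Pnliprp2 overlapped between genotypes and Cd24a did not.

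Markers of other cell types also differed between the libraries, and their part in the defensin result was not tested. Over all tested genes, 0.592% passed as lower and 20.4% were lower at an unadjusted p below 0.05. The stem cell list summed to 12.5 to 33.3 RPKM in the mutant and 40.7 to 48.7 RPKM in wild type. Of its 7 tested genes, 1 passed as lower, Cdca7 (log2 change -0.99, limma adjusted p = 0.0493). At an unadjusted p below 0.05, 6 of the 7 were lower, with a median of -0.99 over the 7. Olfm4, a stem cell marker, had 23.6, 18.7 and 20.2 RPKM in wild type and 1.53, 17.6, 2.04 and 4.48 RPKM in the mutant (log2 change -2.19, limma adjusted p = 0.130). Fibroblast, endothelial and smooth muscle markers summed to 6.33 to 17.1 RPKM against 19.96 to 42.9 RPKM. Of 8 tested, 5 passed as lower (Dcn, Sparc, Acta2, Tagln and Myl9) and 8 were lower at an unadjusted p below 0.05, with a median of -1.79. Dcn, Sparc and Acta2 had mutant means of 0.309, 0.320 and 0.319 RPKM, under the 0.5 RPKM minimum. They entered through the wild-type libraries, which fixed their direction. Pancreatic acinar markers summed to 14.3 to 18.6 RPKM against 27.4 to 38.9 RPKM. Clps and Cela1 made up most of that sum, so it says little about the other acinar genes. Clps averaged 10.6 RPKM in Nlrc4-T337S and 24.1 RPKM in wild type. Cpa1, Cela3b, Pnlip and Prss2 averaged only 0.0722 to 0.222 RPKM in wild type and were too low to test. Of 3 acinar markers tested, 2 passed as lower (Clps and Sycn) and 2 were lower at an unadjusted p below 0.05. Sycn, with a mutant mean of 0.132 RPKM, was also under the minimum and entered through the wild-type libraries. Macrophage and dendritic cell markers summed to 30.7 to 121 RPKM against 89.6 to 161 RPKM, with 0 of 11 passing by limma (9 lower at an unadjusted p below 0.05) and a median of -0.95. Mrc1 and Cd209a, of smallest p there, had adjusted p = 0.0733 and 0.0935 by limma. In the proliferation list 0 of 11 passed by limma (8 lower at an unadjusted p below 0.05), with a median of -0.80; Mcm2 and Cdc20 had adjusted p = 0.105 and 0.122. No gene of these lists was at exactly 0 in every library of a group. The acinar gene Amy2a5, however, reached at most 5.01e-15 RPKM in Nlrc4-T337S, far below the worth of 1 read per kilobase.

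By median log2 change, markers of villus and secretory lineages other than Paneth cells differed less than the stem cell, macrophage and proliferation lists did. Beside their counts stand the shares over all tested genes, 0.592% passing as lower and 20.4% lower at an unadjusted p below 0.05. The enterocyte list summed to 35830 to 52150 RPKM in the mutant and 39484 to 50636 RPKM in wild type, with 0 of 14 passing by limma (1 lower at an unadjusted p below 0.05) and a median of -0.07; Cdhr5 and Fabp2 had adjusted p = 0.179 and 0.242. Goblet cell markers summed to 6306 to 8600 RPKM against 7961 to 10488 RPKM, with 0 of 11 passing (4 lower at an unadjusted p below 0.05) and a median of -0.31; Spdef and Ccl9 had limma adjusted p = 0.142 and 0.174. Enteroendocrine markers summed to 257 to 354 RPKM against 312 to 369 RPKM. Of these, 0 of 11 passed by limma (3 lower at an unadjusted p below 0.05), with a median of -0.20. Chgb and Chga had limma adjusted p = 0.0745 and 0.137. Tuft cell markers had 0 of 6 passing by limma (3 lower at an unadjusted p below 0.05) and a median of -0.30; Ltc4s had adjusted p = 0.208.

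**Figure D5:**
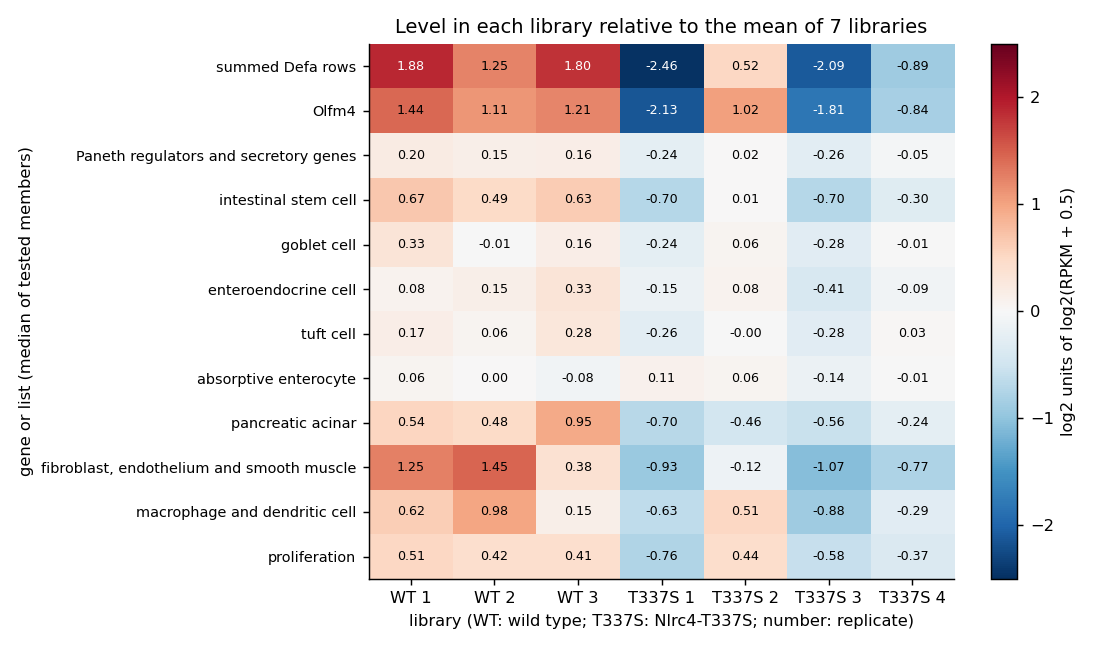
Level of the defensin sum, of Olfm4 and of each marker list (rows; lists as the median of tested members) in each library (columns), relative to the mean of the 7 libraries, in log2 units of log2(RPKM + 0.5). The defensin row runs from -2.46 to 0.52 in mutant libraries, with replicate 2 the highest, and from 1.25 to 1.88 in wild-type libraries, whereas the enterocyte row stays between -0.14 and 0.11.

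The genes whose profile over the 7 libraries was most like the defensin sum were found by the root mean square distance between centred log2(RPKM + 0.5) values, over 9560 other genes that averaged 1 RPKM or more. The nearest were Olfm4 (distance 0.38), Gm15292 (0.58), Igfbp7 (0.66), Rarres2 (0.79), Ifitm1 (0.80), Serping1 (0.80), Mzb1 (0.81), Bgn (0.81), Mmp10 (0.82) and Fabp4 (0.82). The median distance over all 9560 genes was 1.604. Gm15292, an older name of Defa40 in RefSeq, is a defensin outside the naming rule and had 4.69, 3.79 and 3.82 RPKM in wild type and 0.134, 1.56, 0.328 and 0.369 RPKM in Nlrc4-T337S (log2 change -2.22, limma adjusted p = 0.0272). Among the members, Defa26 (0.11), Defa29 (0.15) and Defa3 (0.16) lay nearest to the sum, and Nupr1 (1.76) lay past the median of other genes. These distances describe 7 libraries, which differ in genotype and in depth, and carry no test.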

How the data were processed

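RNA was measured in 7 libraries, 4 Nlrc4-T337S and 3 wild type, assigned to genotype from the labels, with replicates numbered in accession order. Total RNA was made into libraries by the Illumina TruSeq RNA kit, per the labels' protocols; strand is not marked. Per the file headers, the authors aligned reads to mm9 with TopHat 2.1.0 (TopHat2 2.1 in the submitters' processing notes) and Partek 6.16.0606 gave the deposited RPKM. How reads that fit several copies were assigned, and the gene models, are both not given in the sources used here. The deposited table also gives counts of quality-passing reads, 45032119 to 95732587 per library, and the fraction mapped, 84.2% to 97.1%; 1 read per kilobase was therefore worth 0.0124 to 0.0251 RPKM.

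Because RPKM values are normalized, count models were avoided. The log2(RPKM + 0.5) values were tested with limma 3.58.1 in R 4.3.3 (mean-variance trend, no covariate, two-sided, Benjamini-Hochberg at 0.05) over the 10987 genes that averaged 0.5 RPKM or more. Fold changes on this scale understate the change of low genes. SD is over libraries. The fit was checked on simulated data. That check drew genes independently, with equal spread in every library, so it does not cover members that share reads or an outlying library. Members and gene lists were chosen with earlier results of these data known, so no count over them is independent support. Values per library were given for the granule genes, the 8 defensin rows of highest mean RPKM and every member that passed. For lists, the genes that passed were named, or the 2 of smallest p; 1 gene that this rule names is not reported here. Promoters are from RefSeq (GRCm38.p6) and positions from the GENCODE M1 annotation on mm9. The 50-base stretches are from its protein-coding transcripts, so sharing with other transcripts was not counted. Rows were matched to annotations by current symbol or RefSeq synonym. Alternatives covered the pseudocount, the filter, scaling, variance moderation, library weights, sample order and leaving out each library.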

Additional observations from a re-analysis of the deposited data

Results flagged for a closer look

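In groups of 4 libraries, a value was singled out where the gap between an extreme library and its nearest neighbour took up more of the group's range than Dixon's 95% critical value allows. Chance does so in about 1 in 20 groups of normally distributed values, which RPKM values need not be. Of 38 Nlrc4-T337S groups examined (members and sums), 9 were singled out, and many share reads, so they are not independent. The 9 can therefore not be set against that rate. For Defa28 and Defa35 the other mutant libraries were at or near 0 RPKM. In 8 of the 9 the extreme library was Nlrc4-T337S replicate 2, the highest of its group. Its levels were 14.6 RPKM for Defa2, 13 RPKM for Defa20, 8.46 RPKM for Defa21, 0.122 RPKM for Defa28, 1.93 RPKM for both Defa32 and Defa33, 24.1 RPKM for Gm7861 and 5.26 RPKM for Mmp7. In Nlrc4-T337S replicate 4 the Defa35 level of 0.132 RPKM was the highest of its group. That library order is the one given for the defensin sum, and its cause was not tested.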

How the results depend on the processing

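Over all tested genes 98 passed, and the count was 32 with no filter on low values, 57 with a mean RPKM of at least 2, 348 with library weights, 148 with a term for sample order and 312 at a threshold of 0.10. Leaving out 1 library gave 13 to 1354. Of the members, 4 passed as lower; the count was 1 with no filter (Defa-ps1), 1 with a mean RPKM of at least 2 (Mmp7, with Defa34 and Defa-ps1 not tested there), 24 with library weights and 20 at a threshold of 0.10. Leaving out 1 library gave 1 to 29. Scaling by median of ratios or to equal sums added Itln1, giving 5, and quantile normalization added Itln1 and Defa24, giving 6. A pseudocount of 0.1 RPKM, robust variance moderation and the term for sample order each lost Defa3, giving 3 (limma adjusted p = 0.0578, 0.102 and 0.0551). In every setting 0 members passed as higher. The Defa sum kept its direction in each alternative, from -3.32 to -1.91 (log2), and the sum of all members likewise, from -3.16 to -1.84. Of 532 other values for single members, 443 kept direction and side of the threshold, 66 newly passed, 22 no longer passed and 1 reversed: Nupr1, at -0.025 without wild-type replicate 3, where leaving out any 1 library gave -0.025 to 0.26. The cause of these differences was not tested. No paired analysis was possible because replicates were numbered only by accession, which ties no mutant library to a wild-type one. The depth of Nlrc4-T337S replicate 2 limits values near 0.0251 RPKM.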

Other observations

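Mptx1, the mucosal pentraxin next to Mptx2 in name and not among the members, had 2.20, 1.47 and 1.69 RPKM in wild type and 0.219, 0.842, 0.237 and 0.158 RPKM in Nlrc4-T337S (log2 change -1.46, limma adjusted p = 0.0392). Its mutant mean of 0.364 RPKM was under the 0.5 RPKM minimum, so Mptx1 entered through the wild-type libraries, which fixed its direction. Reg3g, an antimicrobial lectin of enterocytes and Paneth cells, had 2275, 1379 and 1223 RPKM in wild type and 630, 1020, 571 and 219 RPKM in the mutant (log2 change -1.55, limma adjusted p = 0.135). Both were lower in every mutant library than in any wild-type library. These genes were chosen after their values were seen.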
